A study of Mus musculus with 2 samples.

Results

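Toll-like receptors are membrane proteins that recognise components of microbes and, in some settings, products of damaged cells. TLR2 works in pairs with TLR1 or TLR6 and recognises lipopeptides, TLR4 recognises lipopolysaccharide together with Ly96 and Cd14, and TLR3, TLR7 and TLR8 sit in endosomes and recognise RNA. Myd88 is the adaptor that most of them use to activate NF-κB, and in the liver the resident macrophages (Kupffer cells) are among the cells known for expressing them. The mRNA of 10 such genes was examined: Tlr1, Tlr2, Tlr3, Tlr4, Tlr6, Tlr7, Tlr8, Cd14, Ly96 and Myd88. They were chosen by gene name on the arrays, where 12 of 41174 probes and 10 of 27962 gene names belonged to them.

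The samples were livers of male apoE-KO mice on the C57BL/6 strain, which lack apolipoprotein E in both diet groups. From 10 weeks of age the mice received normal chow (the chow group) or the high-Chol diet, which is the same chow with 1.25% Chol (the high-Chol group), for 1 week. Each diet was measured on 3 Agilent mouse genome arrays of the one-colour kind, described by the study as independent experiments; the p-values below measure only the spread between these arrays. The probe for Apoe gave signal in both groups (1.66 to 3.81 in the chow group and 3.18 to 3.56 in the high-Chol group, on the log2 scale explained next) and did not check the genotype.

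A level is given as the log2 of the background-subtracted spot signal relative to the 75th percentile of its array, so a level of 0 is the signal of a fairly bright spot of that array. Levels of different probes cannot be set against each other, and only differences between diets are compared between genes. The 75th percentile signal was 271 to 325 for the chow group, and 373, 799 and 762 for high-Chol arrays 1, 2 and 3. All 3 normal chow arrays and high-Chol array 1 were on slide 1, and high-Chol arrays 2 and 3 were on slide 2, so that slide and diet could be told apart only through high-Chol array 1. The share of spots well above background was 50.5% on normal chow array 1 and 60.2% to 67.2% on the other 5 arrays. Pearson's r over the genes, which are not independent of each other, ran from 0.983 to 0.991 between chow arrays, from 0.976 to 0.988 between high-Chol arrays and from 0.956 to 0.982 across groups. Genes were tested if every array of 1 group or the other showed their probe well above background, which held for 16726 genes; 9 of the 10 Toll-like receptor and adaptor genes passed, and Tlr8 did not.

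The mRNA expression of the receptors that recognise lipopeptides and lipopolysaccharide was higher in the high-Chol group. Tlr2 was 5.58-fold higher, Tlr1 5.33-fold, Tlr4 2.71-fold and Tlr6 2.55-fold, all with a limma adjusted p under 0.05. Tlr7 and Cd14 were higher on every high-Chol array than on any normal chow array and did not pass that threshold, while Ly96, Tlr3 and Myd88 overlapped between the diets. Of the 9 genes tested, 4 were called higher and 0 lower, against 2.69% of all genes called higher and 0.227% called lower. Tlr1 and Tlr3 were tested only through their signal in the high-Chol group; with genes required to be well above background on all 6 arrays, 4 of the remaining 7 were called (Tlr2, Tlr4, Tlr6 and Tlr7), against 2.36% of all genes. With no filter on dim probes, Tlr2 alone was called, against 0.093% of all genes. With slide as a block, likewise, 1 was called (Tlr2), against 0.0658% of all genes, and the median difference was 0.71. An unadjusted p under 0.05 was reached by 6 of the 9, all higher, where 12.3% of all genes were higher at that p. The diets did not overlap for 6, all higher on the high-Chol diet, against 11.9% of all genes higher and 14% lower without overlap. Leaving out 1 array at a time gave 6 calls without high-Chol array 1, where 13.9% of all genes were called higher, and 1 to 3 without any 1 of the others, where 0.251% to 1.43% were. After normexp background correction, with an offset of 50, 0 were called, against 0% of all genes. Of the 9 genes, 7 had a positive difference, against 47.8% of all genes. The median log2 difference was 1.25 for the 9 genes and -0.02 for all genes tested. In bulk liver, more cells of a type and more mRNA per cell cannot be told apart.

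**Figure D1:**
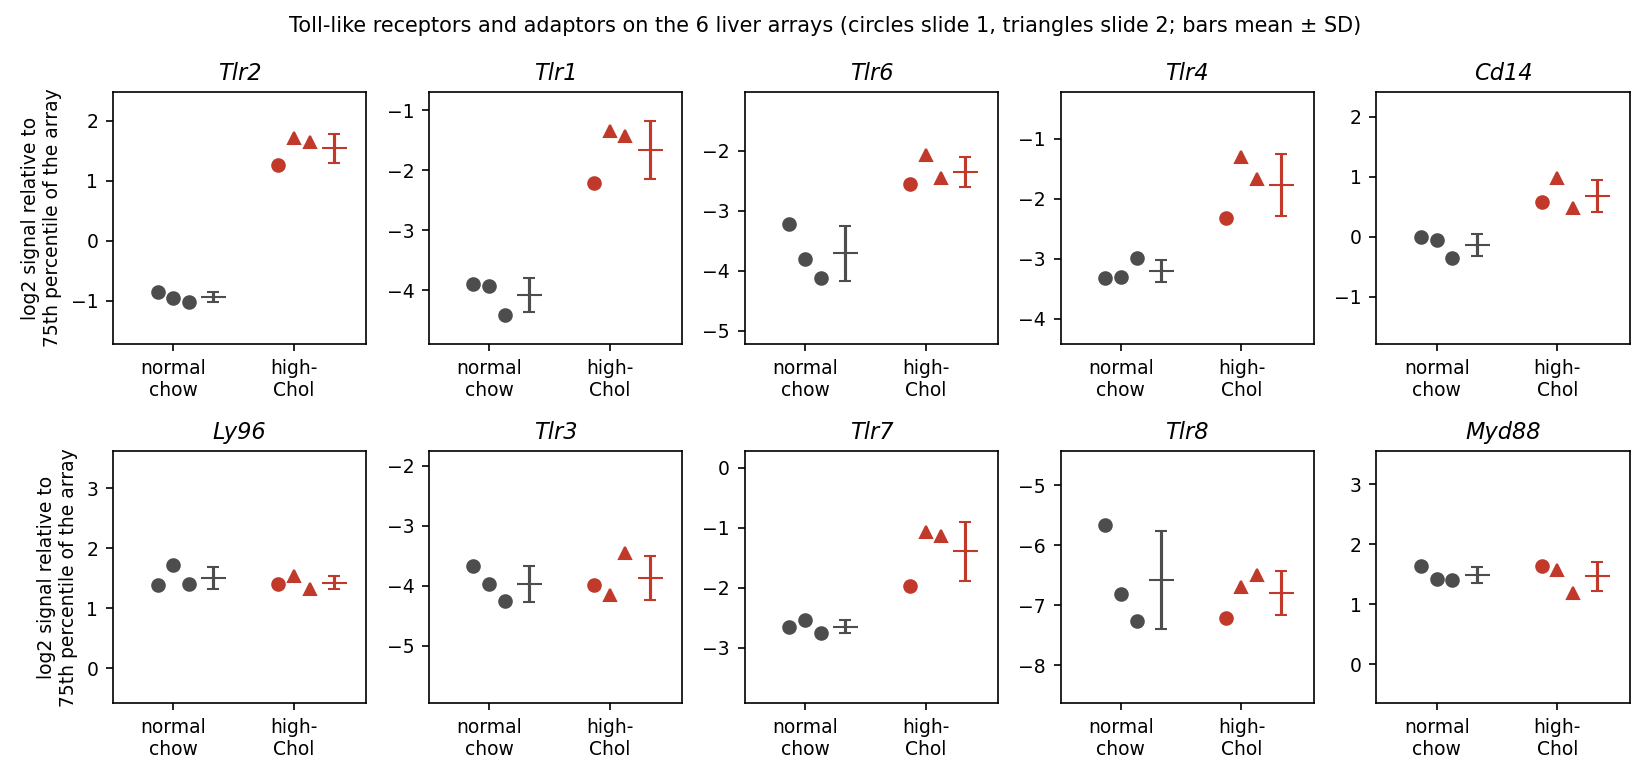
Level of each gene on the 6 arrays (y axis, log2 signal relative to the 75th percentile of the array; every panel spans the same number of log2 units), with circles for slide 1, triangles for slide 2 and bars for the mean ± SD of 3 arrays. The high-Chol points lie above all normal chow points for Tlr2, Tlr1, Tlr6, Tlr4, Cd14 and Tlr7, and overlap them for Ly96, Tlr3, Tlr8 and Myd88; Tlr8 was not well above background on any array.

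The sequence just before the start site of 4 of these genes is shown, because the pathway acts on transcription through NF-κB and interferon regulatory factors, and because 3 of the 4 genes were called higher and the adaptor Myd88 was not. RefSeq promoter windows (GRCm38.p6, 250 bases before the start) were matched for 6 of the 10 genes, with 8 windows in all. Capitals mark matches, on either strand, to the letters GGGNNTTCC (an NF-κB motif), AGGAAGT (an ETS motif) or a pair of GAAA runs with 2 bases between them (an interferon regulatory factor motif). The Tlr2 window is chr3:83841609-83841858, the Tlr1 window chr5:64933559-64933808, the Tlr6 window chr5:64959167-64959416 and the Myd88 window chr9:119340019-119340268, all on the minus strand.
Tlr2: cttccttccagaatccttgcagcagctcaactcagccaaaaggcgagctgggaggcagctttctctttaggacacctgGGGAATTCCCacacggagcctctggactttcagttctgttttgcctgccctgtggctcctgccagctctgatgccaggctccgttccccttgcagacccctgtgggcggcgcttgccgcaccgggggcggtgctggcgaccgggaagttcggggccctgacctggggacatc
Tlr1: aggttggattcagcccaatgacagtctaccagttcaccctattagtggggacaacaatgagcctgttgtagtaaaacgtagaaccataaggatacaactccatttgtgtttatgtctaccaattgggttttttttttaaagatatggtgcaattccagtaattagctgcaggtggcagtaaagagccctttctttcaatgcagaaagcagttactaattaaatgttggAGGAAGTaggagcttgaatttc
Tlr6: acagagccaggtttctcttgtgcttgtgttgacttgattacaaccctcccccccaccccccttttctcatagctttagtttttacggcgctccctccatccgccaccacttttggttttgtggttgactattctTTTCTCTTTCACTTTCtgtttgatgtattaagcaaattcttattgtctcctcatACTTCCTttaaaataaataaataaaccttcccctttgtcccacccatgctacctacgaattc
Myd88: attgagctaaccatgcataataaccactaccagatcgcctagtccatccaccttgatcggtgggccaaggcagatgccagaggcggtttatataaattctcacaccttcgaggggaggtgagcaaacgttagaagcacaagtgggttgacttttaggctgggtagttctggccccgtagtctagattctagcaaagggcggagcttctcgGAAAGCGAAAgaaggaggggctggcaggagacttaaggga
In the Tlr2 window the NF-κB letters matched once on each strand, at overlapping positions that began 172 and 171 bases before the start. The Tlr1 window held the ETS letters 22 bases before the start. The Tlr6 window held, on the opposite strand, the ETS letters 62 bases before the start and overlapping matches to the interferon regulatory factor letters 116 and 110 bases before it. The Myd88 window held the latter letters 40 bases before the start. Of 32851 promoter windows of the same length, 4.98% held the NF-κB letters, 7.69% the ETS letters and 2.98% the interferon regulatory factor letters. Tlr1 and Tlr6 had 2 windows each, of which the one with a match is shown; their other windows and those of Tlr3 and Tlr8 held none of the 3 motifs. A match of letters is a description of the window and does not show binding.

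Tlr2, the shared partner of the lipopeptide receptors, had the most even levels within a diet among the genes called. Its level was -0.86, -0.94 and -1.02 on normal chow arrays 1, 2 and 3, and 1.27, 1.71 and 1.64 on high-Chol arrays 1, 2 and 3. The diets were apart by more than 2 log2 units on every pair of arrays, and the 10 spots of the probe on an array had an SD of 0.0304 to 0.0883. The mean was -0.94 ± 0.08 in the chow group and 1.54 ± 0.24 in the high-Chol group (SD, n = 3 each). The log2 difference was 2.48 (SE 0.17, 95% interval 2.08 to 2.89; limma adjusted p = 0.00307), which is a fold of 4.22 to 7.39 and ranked 73 among the 16726 genes by difference. Within slide 1, high-Chol array 1 was 2.21 above the mean of normal chow. The difference with slide as a block is this same value and rests on high-Chol array 1 alone, because slide 2 held no normal chow array. With slide as a block Tlr2 stayed called (limma adjusted p = 0.0361). After normexp background correction its difference was 1.62 and was not called, where 0 of all genes were. The probe lies on chromosome 3, 83941473 to 83941532 on the minus strand, in the mm7 build of the array annotation.

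Tlr1, which pairs with TLR2 for triacylated lipopeptides, was dim on normal chow and well above background there on arrays 2 and 3. Its level was -3.90, -3.94 and -4.41 in the chow group and -2.22, -1.35 and -1.43 in the high-Chol group. All high-Chol arrays were higher, and high-Chol array 1, on the slide of the normal chow arrays, was the lowest of them. The log2 difference was 2.42 (SE 0.28, 95% interval 1.76 to 3.07; limma adjusted p = 0.00908), and it was 1.86 with slide as a block (adjusted p = 0.0905). Tlr1 passed the filter only through the high-Chol group, where it was high, and with no filter its adjusted p was 0.0695. Without normal chow array 2 the difference was 2.49 and lost its call (adjusted p = 0.0589), and after normexp it was 0.14. The probe lies on chromosome 5, 64279687 to 64279746 on the minus strand (mm7).

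Tlr6, the other partner of TLR2, for diacylated lipopeptides, was also called higher. Its level was -3.21, -3.80 and -4.12 in the chow group and -2.55, -2.07 and -2.46 in the high-Chol group. The diets did not overlap, and the normal chow arrays were spread more widely than for Tlr2. The log2 difference was 1.35 (SE 0.26, 95% interval 0.73 to 1.97; limma adjusted p = 0.0465). With slide as a block it was 1.16 (adjusted p = 0.431), and the call was also lost without any 1 of normal chow arrays 2 and 3 and high-Chol arrays 2 and 3 (1.15 to 1.40, adjusted p = 0.116 to 0.195). It was not called after median scaling (1.11, adjusted p = 0.0641) or quantile normalization (1.13, adjusted p = 0.0819) either, and after normexp background correction its difference was -0.25.

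The shift of one receptor relative to another was taken within each array for 6 pairs of genes that act together. Tlr2 and Tlr1 differed in shift by 0.07 log2 units and overlapped between the diets (two-sided exact permutation p = 0.5, adjusted over the 6 pairs 0.5). After normexp, with an offset of 50, Tlr2 differed by 1.62 and Tlr1 by 0.14, and the background method and the offset were not tested apart. Tlr1 was well above background on 2 of 3 normal chow arrays and passed the filter only through the high-Chol group. Tlr6 differed by -0.25 after normexp. Without normexp, Tlr2 shifted by 1.13 more than Tlr6 and Tlr1 by 1.06 more than Tlr6, without overlap in either case (exact permutation p = 0.1, adjusted 0.15). Within slide 1, from high-Chol array 1 alone, these 3 shifts were 0.35, 1.05 and 0.70. With 3 arrays against 3, the smallest p that this test can give is 0.1. The Tlr1 and Tlr2 probes are 60 bases long, and no pair among the 12 probes shared a run of more than 8 bases.

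Tlr4, the lipopolysaccharide receptor, rose on the probe that was above background. Its level was -3.33, -3.30 and -2.99 in the chow group and -2.33, -1.30 and -1.68 in the high-Chol group. All high-Chol arrays were above all normal chow arrays, with high-Chol array 1 the nearest to them. The log2 difference was 1.44 (SE 0.27, 95% interval 0.79 to 2.08; limma adjusted p = 0.0441). With slide as a block it was 0.88 (adjusted p = 0.348). The call was lost without any 1 array other than high-Chol array 1 (1.20 to 1.55, adjusted p = 0.0967 to 0.187), and without high-Chol array 1 the difference was 1.72 (adjusted p = 0.00426). After normexp it was 0.0076. Another Tlr4 probe, on chromosome 4 from 66363220 to 66363279 (mm7), was not well above background on any array.

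Of the genes that work beside Tlr4 at the cell surface, Cd14 was higher without overlap and Ly96 overlapped. Cd14, which hands lipopolysaccharide to the receptor, had levels of -0.01, -0.05 and -0.35 in the chow group and 0.58, 0.98 and 0.49 in the high-Chol group. Its diets did not overlap, and the log2 difference was 0.82 (SE 0.19, 95% interval 0.37 to 1.27), with a limma adjusted p of 0.0808. Without high-Chol array 1 it was 0.87 and passed the threshold (adjusted p = 0.0369). Ly96, also called MD-2, which binds lipopolysaccharide within the receptor complex, had levels of 1.40, 1.72 and 1.41 in the chow group and 1.41, 1.55 and 1.33 in the high-Chol group. These values overlapped, and the log2 difference was -0.08 (95% interval -0.46 to 0.30; limma adjusted p = 0.791), with a sign that turned after normexp and without normal chow array 2. The within-array shift of Tlr4 exceeded that of Ly96 by 1.52 without overlap (exact permutation p = 0.1, adjusted 0.15), and that of Cd14 by 0.62 with overlap (p = 0.2, adjusted 0.24); within slide 1 these were 0.97 and 0.16.

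**Figure D2:**
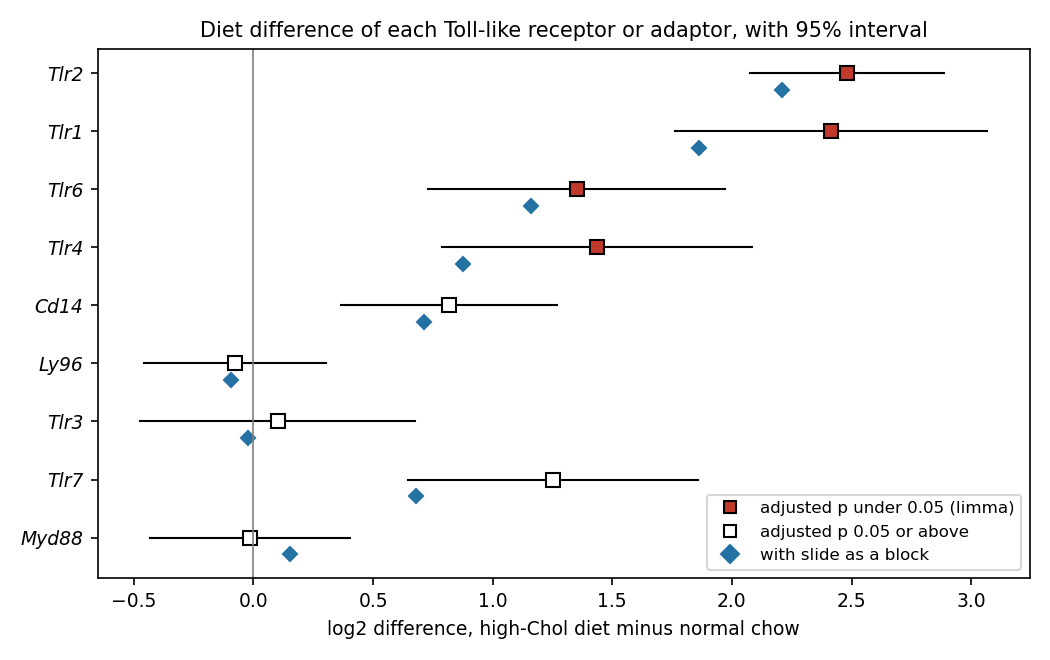
Log2 difference between the diets (x axis, high-Chol diet minus normal chow) for the 9 genes tested, with 95% intervals from limma; filled squares passed an adjusted p of 0.05, and diamonds show the fit that takes slide as a block. Tlr2 and Tlr1 lie at 2.48 and 2.42, the squares of Tlr4, Tlr6 and Tlr7 between 1.25 and 1.44, and Ly96, Tlr3 and Myd88 near 0, while the diamonds of Tlr1, Tlr4 and Tlr7 lie more than 0.5 log2 units to the left of their squares.

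Of the receptors for RNA in endosomes, Tlr7 was higher without overlap and the others were not. Tlr7, which recognises single-stranded RNA, had levels of -2.65, -2.54 and -2.75 in the chow group and -1.97, -1.07 and -1.14 in the high-Chol group. High-Chol array 1 lay about midway between the normal chow arrays and the other two high-Chol arrays. The log2 difference was 1.25 (SE 0.26, 95% interval 0.65 to 1.86; limma adjusted p = 0.055). A block for slide lowered it to 0.68 and normexp to 0.14. Tlr7 passed the threshold without high-Chol array 1 (1.54, adjusted p = 0.00314), after median scaling (1.02, adjusted p = 0.0469) and when genes had to be well above background on all 6 arrays (adjusted p = 0.0424).

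Tlr3, the receptor for double-stranded RNA, which signals through the adaptor Ticam1 in place of Myd88, had levels of -3.68, -3.97 and -4.26 in the chow group and -3.99, -4.16 and -3.45 in the high-Chol group. The diets overlapped, and the log2 difference was 0.10 (95% interval -0.47 to 0.68; limma adjusted p = 0.824), with a sign that turned after normexp, median scaling, quantile normalization, with slide as a block and without normal chow array 3 or high-Chol array 3. Its other probe differed by 0.43, and both were well above background on 2 of the 3 normal chow arrays. Tlr8, on the other hand, was not well above background on any of the 6 arrays, where its values ran from -7.26 to -5.67 in the chow group and from -7.21 to -6.49 in the high-Chol group. No fold is given for it.

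Myd88, the adaptor shared by most of these receptors, had levels of 1.63, 1.42 and 1.40 in the chow group and 1.64, 1.58 and 1.19 in the high-Chol group. The highest and the lowest array both came from the high-Chol diet. The log2 difference was -0.02 (95% interval -0.43 to 0.40; limma adjusted p = 0.966), which spans a fold of 0.74 to 1.32; its sign turned with slide as a block, after normexp and quantile normalization, and without normal chow array 1 or high-Chol array 3. The within-array shift of Tlr2 exceeded that of Myd88 by 2.50 without overlap (exact permutation p = 0.1, adjusted 0.15), and by 2.06 within slide 1.

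Other genes of the pathway were taken from lists that cover the route from receptor to target genes. Of 66 listed genes, 63 were on the arrays and 53 were tested, of which 11 were called higher and 0 lower, beside the 2.69% of all genes called higher. Tnf, Irak3 and Cd40 among the 11 passed the filter only through the high-Chol group, and 8 were called with genes required to be well above background on all 6 arrays, beside 2.36% of all genes. Without overlap between the groups, 21 were higher and 3 lower (Tlr9, Hsp90b1 and Tollip), beside 11.9% and 14% of all genes. Their median log2 difference was 0.24. Of the 11, 6 were genes that the pathway induces and 3 were inhibitors of it, and none was a kinase or ubiquitin ligase.

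**Figure D3:**
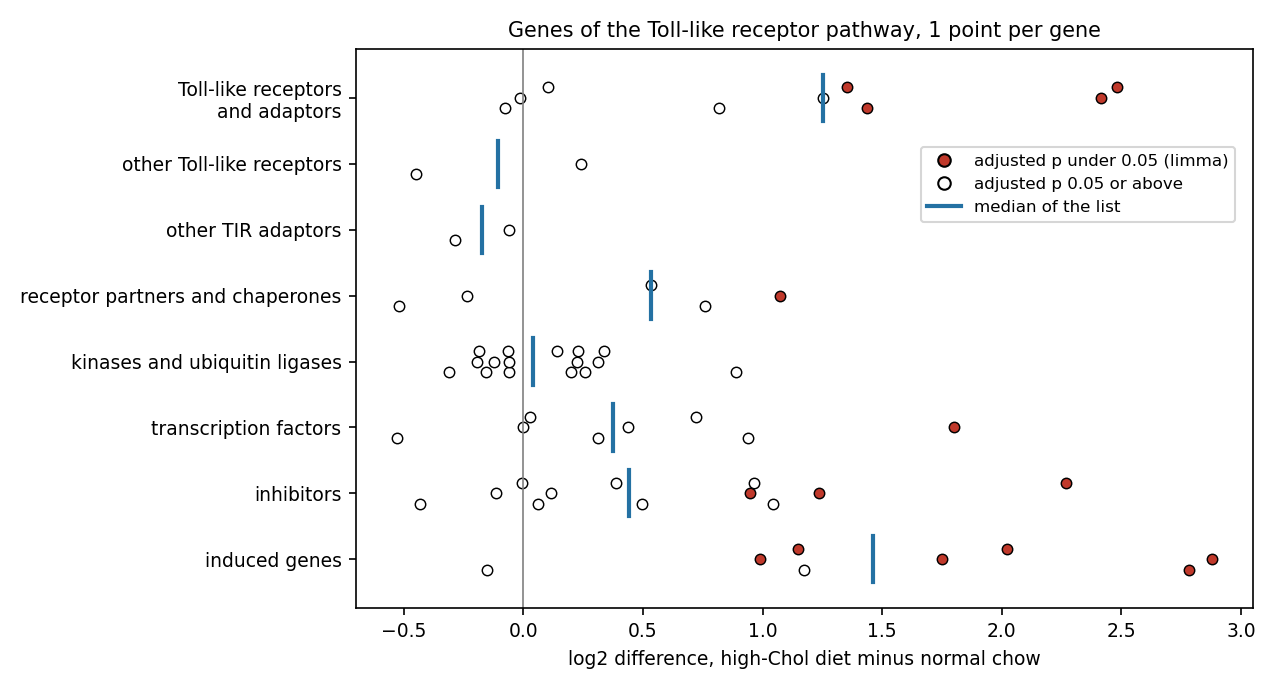
Log2 difference between the diets (x axis, high-Chol diet minus normal chow) of each gene tested in the Toll-like receptor and adaptor set and in 7 further lists of the pathway, 1 point per gene, filled where the limma adjusted p was under 0.05, with the median of each list as a vertical bar. The 16 kinases and ubiquitin ligases centre on 0.04 with none filled, and the 8 induced genes centre on 1.46 with 6 filled; the point of Tnf, which was not well above background on normal chow, is its measured difference.

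Neither of the other receptors tested was called, with Tlr5, the flagellin receptor, at 0.24 and Tlr9, the receptor for unmethylated DNA, at -0.45 (limma adjusted p = 0.183). The adaptors Tirap (-0.06) and Ticam1 (-0.28) were not called, and Ticam2 and Sarm1 were not tested because of low signal. Among 5 receptor partners and chaperones, Ly86 (MD-1), the partner of the Toll-like receptor homologue Cd180, was higher by 1.07 (SE 0.16, adjusted p = 0.0212). Lbp, the plasma protein that carries lipopolysaccharide to Cd14, differed by 0.76 (adjusted p = 0.124) and the chaperone Hsp90b1 by -0.52 (adjusted p = 0.175).

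The steps between receptor and nucleus are carried by kinases, ubiquitin ligases and transcription factors. All 16 kinases and ubiquitin ligases were tested and 0 were called, with a limma unadjusted p under 0.05 in 1 of them, a median of 0.04, and a range from -0.31 for Tab1 to 0.89 for Ikbke. Of 8 transcription factors, Relb, the NF-κB subunit of the non-canonical pathway, was higher by 1.80 (SE 0.25, adjusted p = 0.0165). Irf7, at -0.53 (adjusted p = 0.245), had the smallest value of this list. Nfkb2 differed by 0.94 and Nfkb1 by 0.72 without overlap between the diets, with adjusted p of 0.0652 and 0.0789, and Rela by 0.03.

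Of 12 inhibitors of the pathway, 3 were called higher. Tnfaip3, which encodes the ubiquitin-editing enzyme A20, differed by 2.27 (SE 0.22, adjusted p = 0.00639), Nfkbie, an inhibitor of NF-κB, by 1.24 (SE 0.17, adjusted p = 0.0155), and Irak3, which was well above background on 2 of 3 normal chow arrays and is a kinase homologue that restrains Myd88 signalling, by 0.95 (SE 0.17, adjusted p = 0.0352). Tollip had the smallest difference, at -0.43 (adjusted p = 0.211).

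Of 14 genes that the pathway is known to induce, 8 were tested and 6 were called higher. The chemokine gene Cxcl10 differed by 2.88 (SE 0.40, adjusted p = 0.0164), Il1b by 2.02 (SE 0.30, adjusted p = 0.0199) and the chemokine gene Ccl5 by 1.75 (SE 0.31, adjusted p = 0.0351). Tnf was not well above background in the chow group and higher in the high-Chol group by at least 3.74-fold, taken as the measured high-Chol mean against the lowest signal that was well above background on each normal chow array. Its measured means were -5.43 ± 0.16 and -2.65 ± 0.23 (SD, n = 3 each; limma adjusted p = 0.00245), and it passed the filter only through the high-Chol group, where it was high. With slide as a block, none of the other 10 pathway genes stayed called. The costimulatory genes Cd86 and Cd40 were higher by 1.15 (adjusted p = 0.0144) and 0.99 (adjusted p = 0.0293), of which Cd40 was well above background on 2 of 3 normal chow arrays, while Il12a differed by -0.15. The median of the 8 genes was 1.46, also with Tnf at its bound. Without high-Chol array 1, 17 of the pathway genes were called, beside 13.9% of all genes. Without any 1 of the other 5 arrays 2 to 6 were, beside 0.251% to 1.43% of all genes.

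Of the marker lists, those of macrophages and neutrophils held most of the genes called. All 10 macrophage markers had positive differences and 5 were called higher (Marco, Lyz2, Cd68, Cd5l and Aif1), beside 47.8% of all genes with a positive difference and 2.69% called higher, with a median of 0.88; the mean level of the 9 with a value on every array (all but Adgre1) was 2.85 to 3.02 in the chow group and 3.88 to 4.10 in the high-Chol group. The Kupffer cell marker Clec4f differed by 0.41 and the macrophage receptor Csf1r by 0.28, neither called. Of 7 neutrophil markers on the arrays, 4 were tested, and S100a8 and S100a9 were called higher (3.21 and 2.90). The granule genes Ngp, Camp and Elane did not pass the filter. The mean level of the 4 tested was -2.63 to -2.39 in the chow group and -0.92 to 0.21 in the high-Chol group. Among these 4, Ltf was well above background on 1 of 3 normal chow arrays. The dendritic cell list (median 0.39) had 1 gene called of 5, Itgax at 3.27 (well above background on 2 of 3 normal chow arrays). Of 5 T cell, 5 B cell, 6 liver endothelial cell and 5 stellate cell markers, 0 were called, with medians of 0.84, 0.54, 0.18 and -0.01. The mean level of the liver endothelial cell list was 1.00 to 1.15 in the chow group and 1.26 to 1.38 in the high-Chol group. Mean levels of the T cell and dendritic cell lists did not overlap either, and those of the B cell and stellate cell lists did. Without overlap, 7 macrophage, 3 neutrophil, 3 T cell, 1 B cell, 2 dendritic cell and 2 liver endothelial cell markers were higher, beside 11.9% of all genes. Lower without overlap were 1 B cell and 1 dendritic cell marker, beside 14% of all genes. The T cell and dendritic cell markers that were higher were each well above background on 2 of 3 normal chow arrays. They passed the filter only through the high-Chol group. With slide as a block, 0 markers of any list were called. The hepatocyte markers were bright on all arrays, with none of 7 called. Without overlap 1 of them was higher and 3 were lower, beside 11.9% and 14% of all genes. Their mean level was 6.87 to 6.99 in the chow group and 6.64 to 6.75 in the high-Chol group. The part of these cell types in the receptor differences was not tested.

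**Figure D4:**
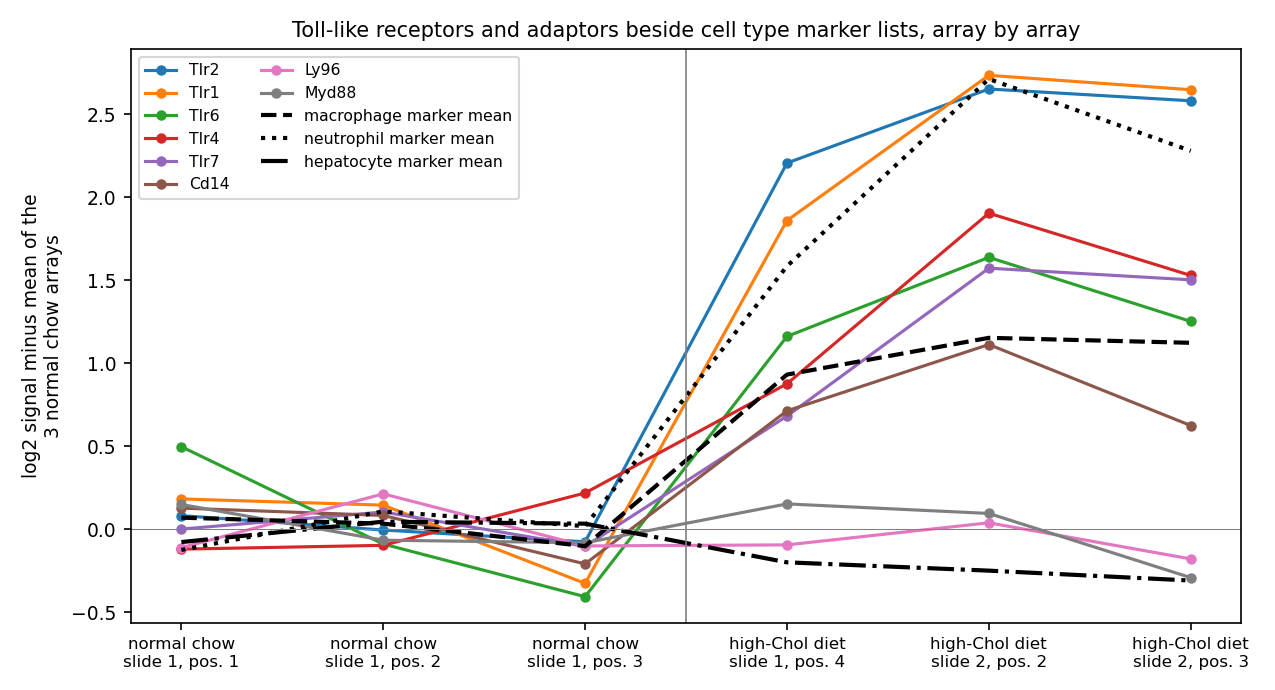
Level on each array minus the mean of the 3 normal chow arrays (y axis, log2 units) for 8 receptor and adaptor genes and for the mean of the macrophage, neutrophil and hepatocyte markers; lines join the values of a gene and imply no order of the arrays. The macrophage mean stands above its chow values on every high-Chol array and below Tlr2 and Tlr1 there, and high-Chol array 1 is the lowest of the high-Chol arrays for Tlr2, Tlr1, Tlr6, Tlr4, Tlr7 and both leukocyte marker means.

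The profile over the 6 arrays was compared with that of every other gene. The mean centred profile of the 7 genes with signal well above background on each of the 6 arrays was nearest, by root mean square distance among 14038 genes, to those of Pira3, Mpeg1, Prg1, Gpr65 and Hip1 (0.0364, 0.0625, 0.0831, 0.0889 and 0.0894 log2 units). Mpeg1 is a perforin-like gene of macrophages, and Prg1 is an older symbol used by the array design. Their log2 differences between the diets ran from 0.95 for Prg1 to 1.06 for Gpr65. Likeness over 6 arrays in 2 diets is a description and carries no test.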

How the data were processed

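Liver mRNA from apoE-KO mice was hybridised to 6 one-colour arrays, 3 per diet. The authors deposited the scanner intensity of each spot, extracted and background-subtracted by Agilent Feature Extraction (9.5 on slide 1 and 9.1 on slide 2; the submitters' processing notes name 9.1) and not normalized between arrays. The authors also deposited log2 values for 23458 probes, with 1 column for each diet, which had been normalized and filtered in Gene Spring GX with settings that are not stated; their column medians were -0.0019 and -0.27, and their diet differences followed those used here with a slope of 1 and were offset by -0.24.

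Control spots (1639 per array) and outlier spots (75 to 196) were left out, saturated spots (5 on 1 array) were kept, each array's 75th percentile of non-control spots was subtracted from the log2 signal, and spots of a probe were averaged. Where a gene had several probes, the brightest was used. A probe was well above background on an array when at least 0.5 of its spots were. The comparison of the diets used lmFit and eBayes of limma 3.58.1 (R 4.3.3; two-sided, no covariate), with Benjamini-Hochberg adjustment over 16726 genes and a threshold of 0.05. Precision is limited by having 3 arrays a group, which give an exact permutation p of at least 0.1. Python 3.11.15 served for the sequences and matplotlib 3.10.9 for the plots.

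The genes and lists were chosen with earlier results of these data known. Named genes were all members, the called genes of each pathway list or otherwise its largest and smallest difference, the 5 genes with the nearest profile, and further list members where a result turned on them; Rela, Nfkb1, Nfkb2, Irf7, Lbp, Hsp90b1, Tollip, Il12a, Clec4f, Csf1r and Ltf were named after their values were seen. Of 120 listed genes, 115 were matched to the arrays. Alternatives were normexp background correction, median scaling, quantile normalization, other filters and probe rules, slide as a block, leaving out each array, the methods' t-test and the authors' values. The array annotation gives probe positions in mm7, promoter windows are those of RefSeq (GRCm38.p6), and the 2 builds were not compared.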

Additional observations from a re-analysis of the deposited data

How the results depend on the processing

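Median scaling moved the median of all genes to -0.26, so differences under it are read relative to that shift; under normexp it was -0.11. Of the 9 genes tested, 4 were called higher by limma; the count was 0 after normexp with an offset of 50 added to signals of which several on normal chow were lower (0 of all genes were then called), 1 with no filter on dim probes, 1 with slide as a block, 1 to 6 on leaving out each array in turn, and 6 by the methods' t-test unadjusted (8.4% of all genes higher and 8.31% lower by that test) and 0 after Benjamini-Hochberg. It was 4 under median scaling (1.99% of all genes; Tlr7 in place of Tlr6), 3 after quantile normalization (2.13%; without Tlr6), and 4 with all 6 arrays required (2.36%), probes averaged per gene (2.73%) or probes tested singly (2.36%). The median difference of 1.25 was 0.14 after normexp, 0.71 with slide as a block, 1.06 over the 8 genes of the authors' values and 1.09 to 1.45 on leaving out each array. For the pathway lists, 11 genes were called higher. The count was 0 after normexp (0% of all genes), 6 under median scaling (1.99%), 1 with no filter (0.093%) and 1 with slide as a block (0.0658%). It was 2 to 17 on leaving out each array in turn (0.251% to 13.9%). The unadjusted t-test called 19 higher and 3 lower (8.4% and 8.31% of all genes), and 0 were called after adjustment.

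Tlr2 kept a positive difference under every alternative run (1.62 to 2.62) and its call under each that gave a test other than normexp and the adjusted t-test; the authors' values give no test. After normexp Tlr6 was -0.25, Tlr4 0.0076, Tlr1 0.14 and Tlr7 0.14. Differences near 0 turned sign: Ly96 was 0.065 after normexp, and -0.1372 to 0.0277 on leaving out each array. Myd88 was 0.14 after normexp, 0.0533 after quantile normalization, 0.15 with slide as a block and -0.0987 to 0.1235 on leaving out each array. Tlr3 was -0.57 after normexp, -0.13 under median scaling, -0.22 after quantile normalization, -0.0228 with slide as a block and -0.1066 to 0.2482 on leaving out each array. The cause was not tested. No paired analysis was run because nothing states that the replicate numbers in the sample titles tie a normal chow liver to a high-Chol diet liver. Dim probes such as those of Tlr8, Tlr1 and Tlr3 limit what can be measured on normal chow.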
